A study of Mus musculus with 32 samples.

Results

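The respiratory chain of mitochondria is built from subunits encoded in the nucleus and in mitochondrial DNA, and the genes described here are the nuclear-encoded ones. They were chosen by a rule on symbols that used no measured value, though earlier results of these data were known. The rule took the protein-coding genes of the Ndufa, Ndufb, Ndufc, Ndufs and Ndufv series, the Sdh genes, the Uqcr genes, the Cox4 to Cox8 series and the Atp5 genes, added Cyc1 and Cycs, and left out the assembly factors named Ndufaf and Uqcc. It found 87 genes among the 52636 in the count table: 38 of complex I, 4 of complex II, 9 of complex III with Cyc1, the cytochrome c gene Cycs, 18 of complex IV and 17 of complex V. Of these, 83 passed the filter on low counts and were among the 15599 genes tested, and the other 4 (Cox4i2, Cox7b2, Cox8b and Cox8c) were tissue isoforms of complex IV.

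The study measured polyadenylated RNA of mouse liver by bulk sequencing in 32 libraries, each with an animal number of its own. All mice were on the PTU/LID diet, a diet that stops the thyroid from making hormone, so every group, controls included, was hypothyroid unless hormone was given. Wild-type animals and Thrb knockout (KO) animals, which lack thyroid hormone receptor beta, were injected with carbon tetrachloride (CCl4), a solvent toxic to the liver, at 0.4 µl/g, or with oil. The injections ran for 4 weeks, 2 in each week and 9 in all, and during the last week the drinking water held triiodothyronine (T3), the active thyroid hormone, at 1 µg/ml, or the animals received phosphate-buffered saline (PBS). The 8 groups of 4 livers are wild type on PBS with oil, wild type on PBS with CCl4, wild type on T3 with oil, wild type on T3 with CCl4, and the same 4 treatments in the knockout. Livers were taken 24 hours after the last injection. The labels read here give neither sex, age and strain background nor the part of Thrb that the knockout removes.

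Complex I takes electrons from NADH and complex II from succinate, and both pass them to ubiquinone. Complex III passes them on to cytochrome c, and complex IV hands them to oxygen. Complexes I, III and IV pump protons out of the matrix, and complex V, the ATP synthase, uses their return to make ATP. Thyroid hormone is known to raise mitochondrial respiration in liver, where receptor beta is the main receptor of hepatocytes. Among the genes the rule took, Ndufa4 is now counted as a part of complex IV and Cox7a2l acts in the joining of complexes into supercomplexes.

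The libraries held between 16985162 and 26118055 counts. Thrb was still counted in the knockout, at 15.9 to 42.6 CPM (counts scaled to a common library size) against 10.7 to 66.4 CPM in wild type, and since the removed part is not known its level does not check the genotype. The T3 target Dio1, a deiodinase, stood at 1067 ± 146 CPM (mean ± SD, n = 4) in wild type on T3 with oil, 113.5 ± 12.4 CPM in the knockout on T3 with oil and at most 1.00 CPM in any wild-type liver on PBS. A pair of livers carried skeletal muscle transcripts: the 7 muscle genes summed to 659 CPM in wild type on PBS with CCl4, replicate 2, and to 1185 CPM in the knockout on PBS with CCl4, replicate 3, and to at most 2.56 CPM in any other. For the members, results that rest on these livers are given with and without them where they differ. The 10 hepatocyte genes were all present in every group, with sums from 53099 to 177768 CPM over the 32 livers.

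Promoters are shown first, because many of these genes moved together. RefSeq promoters of GRCm38.p6, from 250 bases before to 50 bases after the start of transcription, were matched to 68 of the 87 genes and not to 19. Those of Ndufa5, Sdhd, Cycs and Cox7b are printed 5′ to 3′ on the strand of the gene. They belong to members of complexes I, II, cytochrome c and IV with the smallest adjusted p in the comparison with most members called, except that only members with a promoter could be shown. The promoters of Uqcr10 and Atp5c1, picked in the same way for complexes III and V, held none of the 7 motifs searched and are not printed. Capitals mark motif matches on either strand.
Ndufa5: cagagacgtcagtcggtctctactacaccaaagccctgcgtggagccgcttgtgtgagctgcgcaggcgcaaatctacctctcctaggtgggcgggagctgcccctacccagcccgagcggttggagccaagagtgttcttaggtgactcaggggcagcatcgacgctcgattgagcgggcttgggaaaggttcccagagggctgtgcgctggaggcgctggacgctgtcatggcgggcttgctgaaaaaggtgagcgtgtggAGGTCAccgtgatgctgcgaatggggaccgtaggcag
Sdhd: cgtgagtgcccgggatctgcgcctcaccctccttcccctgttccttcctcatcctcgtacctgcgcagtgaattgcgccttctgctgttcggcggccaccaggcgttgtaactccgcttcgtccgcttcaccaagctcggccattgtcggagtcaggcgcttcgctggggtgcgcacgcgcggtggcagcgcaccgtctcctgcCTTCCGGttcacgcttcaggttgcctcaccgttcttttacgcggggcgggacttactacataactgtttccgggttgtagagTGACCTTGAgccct
Cycs: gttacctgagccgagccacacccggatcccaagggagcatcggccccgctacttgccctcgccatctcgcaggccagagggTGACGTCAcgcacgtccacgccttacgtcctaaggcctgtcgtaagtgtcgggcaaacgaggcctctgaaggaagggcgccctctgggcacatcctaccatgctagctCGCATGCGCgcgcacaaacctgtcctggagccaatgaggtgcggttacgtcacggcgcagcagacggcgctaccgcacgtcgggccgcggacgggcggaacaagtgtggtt
Cox7b: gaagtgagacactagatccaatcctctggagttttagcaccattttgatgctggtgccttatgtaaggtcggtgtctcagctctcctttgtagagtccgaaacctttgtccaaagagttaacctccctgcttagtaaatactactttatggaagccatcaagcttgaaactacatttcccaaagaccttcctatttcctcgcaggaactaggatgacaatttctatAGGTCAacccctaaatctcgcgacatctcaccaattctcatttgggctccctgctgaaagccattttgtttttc
The Ndufa5 window is chr6:24527477-24527776 on the minus strand, within the annotated span of the gene. The annotated gene begins upstream of it, at 24528013, so the window does not cover that start. Its capitals are a nuclear receptor motif, AGGTCA, that begins 14 bases after the start site used for the window. The Sdhd window is chr9:50603800-50604099, minus strand, and its capitals are an ETS motif (CCGGAAG, read on the other strand) and an estrogen-related receptor (ERR) motif (TCAAGGTCA, read on the other strand). The Cycs window is chr6:50566520-50566819, minus strand, with a cAMP response element (CRE, TGACGTCA) and then a motif of nuclear respiratory factor 1 (NRF1, GCGCATGCG, read on the other strand). The Cox7b window is chrX:106015450-106015749, plus strand, with 1 AGGTCA.

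The NRF1 motif was held by 9 of the 68 promoters (13.2%), against 1.75% of all 32851 promoters and 3.70% of the 11347 promoters of genes tested. Its holders were Atp5g2, Atp5k, Atp5l, Cox6a1, Cycs, Ndufa11, Ndufa8, Uqcr11 and Uqcrc1, so each complex but II had at least 1. The YY1 motif AAGATGGC was also in 9 promoters (13.2%, against 2.75% of all and 4.86% of genes tested), 7 of them of complex I. ETS motifs were in 16 promoters (23.5%, against 8.86% and 18.5%), CRE in 5 (7.35%, against 1.79% and 3.43%), and AGGTCA, which lies within the ERR motif, in 16 (23.5%, against 16.3% and 15.6%). The ERR motif itself was in 2, those of Sdhd and Atp5g3 (2.94%, against 0.423% and 0.344%). The direct repeat of AGGTCA with a spacer of 4 bases, the DR4 motif of thyroid hormone receptors, was in none of the 68 windows and in 0.0152% of all promoters. Motifs were searched on both strands, and a match is a description of letters in this window only.

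Levels varied widely among the members. Per kilobase of exon, averaged over all 32 livers, complex V was led by Atp5a1 and Atp5b, its alpha and beta subunits, at 310 and 296 CPM per kb. Complex IV was led by Cox6a1 (331 CPM per kb) and Cox6b1 (316), complex III by Uqcr10 (201.9), complex I by Ndufa1 (206) and Ndufa4 (204), and complex II by its membrane anchor Sdhd (189.9). The lowest members per kb were Ndufa4l2 (1.1) and Ndufb2 (1.8) in complex I, Sdhc (49.1) in complex II, Uqcrc1 (52.8) in complex III, Atp5l (2.8) and Atp5s (4.2) in complex V, and the tissue isoforms of complex IV, all at or below 3.9. The length was that of all annotated exons of a gene merged, so long annotated exons lower the level and the order depends on it. Uqcrc1 has 4135 such bases and Uqcr10 584. In plain CPM, Uqcrc1 stood at 232 and Uqcr10 at 97.2 in wild type on PBS with oil. Many of these genes have near-identical copies elsewhere in the genome that could share reads. The effect of such copies on the levels was not tested. Cycs, a small carrier that shuttles between complexes III and IV, stood at 19.3 CPM per kb.

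Summed over all 87 genes, the level was 12925 ± 676 CPM in wild type on PBS with oil and 9200 ± 722 CPM with CCl4 (SD, n = 4 in each group). On T3 it was 15146 ± 1887 CPM with oil and 15428 ± 1115 CPM with CCl4. In the knockout on PBS the sums were 13422 ± 995 CPM with oil and 10708 ± 1749 CPM with CCl4, and on T3 they were 14002 ± 495 and 9069 ± 773 CPM. The injured knockout on T3 thus had the lowest mean of the 8 groups, close to that of the injured wild type without hormone. The injured wild type on T3 had the highest, close to that of the uninjured wild type on T3. The order rests in part on the scaling. As a plain share of all counts, the members took 1.18% in wild type on PBS with oil, 1.11% with CCl4, 1.51% on T3 with oil and 1.45% on T3 with CCl4, with an SD of at most 0.107 in any group. In the knockout the shares were 1.21%, 1.18%, 1.30% and 0.939%. On that scale the injured knockout on T3 was again lowest, while wild type on T3 was highest with oil and not with CCl4. The fall with CCl4 on PBS was small there.

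**Figure D1:**
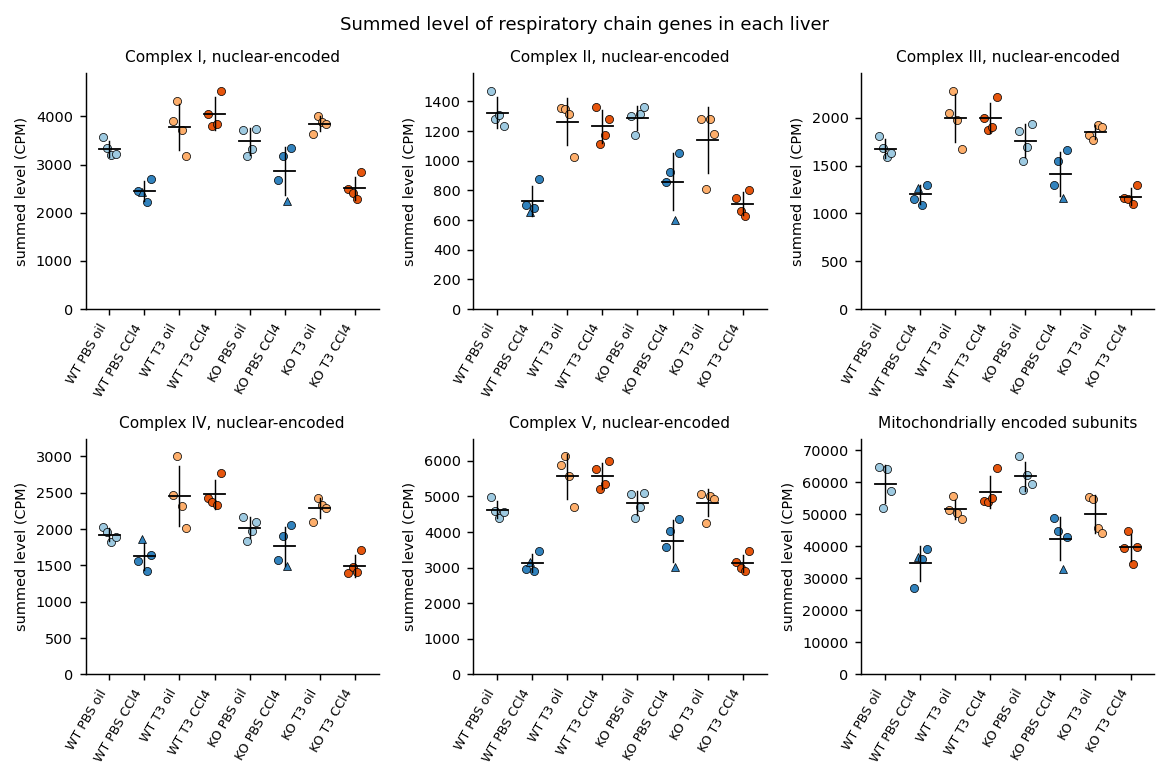
Summed CPM of the nuclear-encoded members of complexes I to V and of the mitochondrially encoded subunits (vertical axes) in each liver of the 8 groups (horizontal axes). Points are livers, horizontal bars means, vertical bars SD, and triangles the 2 livers with muscle transcripts. Complex II shows the deepest relative fall with CCl4 on PBS in wild type, from a mean of 1323 to 728.5 CPM.

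CCl4 in wild-type livers on PBS went with lower transcripts of many subunits of complexes I, II, III and V, relative to the other genes. By edgeR's quasi-likelihood test, 52 of the 83 members fell and 1, Cycs, rose (background: 46.2% of all genes called, 24.6% higher and 21.6% lower), while scaling to total counts alone gave 13 lower and 10 higher. The median log2 change was -0.45, and that of all genes tested was 0.04. Without both muscle-bearing livers 58 fell and 1 rose. Total counts alone raised all log2 changes of this comparison by a median of 0.40. Complex II stood lowest: all 4 genes fell, with a median of -0.77, and all 4 also fell under total counts alone. In complex I 27 of 38 fell, among them all 7 core genes that carry the redox centres (median of the complex -0.45), in complex III 6 of 9 (-0.54) and in complex V 12 of 17 (-0.45), including all 5 genes of the F1 head and central stalk. In complex IV 3 of 14 fell, Cox7b, Cox6c and Cox6b1, a share of 21.4% that lies at the background, and the median was -0.19. In bulk liver, fewer cells of a type and less RNA per cell cannot be told apart. The hepatocyte genes moved the same way, with 8 of 10 lower and summed levels of 53099 to 73407 CPM against 125930 to 177768 CPM with oil, while 7 of 8 myofibroblast and 10 of 10 monocyte-derived macrophage genes were higher. The part of such shifts in these results was not tested.

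In the knockout on PBS, CCl4 called 38 members, 35 lower and 3 higher (background: 31.1% of all genes, 17.8% higher and 13.4% lower), with a median of -0.28. Total counts alone, which shifts the log2 changes of all genes and not of the members only, gave 2 lower and 5 higher. The direction of the calls thus depends on the scaling here. All 4 genes of complex II fell again, 17 of 38 in complex I, 5 of 9 in complex III, 2 of 14 in complex IV and 7 of 17 in complex V. Cycs rose, with Cox6a2 and Cox6b2. This count rested on single livers: it was 11 without replicate 3 of the knockout on PBS with CCl4, which carried muscle transcripts, 22 without replicate 1 of that group, 21 without replicate 1 or without replicate 4 of the knockout on PBS with oil, and 16 without both muscle-bearing livers. The test of the difference between genotypes called none of the 83 (smallest adjusted p 0.61), with 2 at an unadjusted p under 0.05, none by DESeq2 and 0.0192% of all genes called. Of the 10 hepatocyte genes 4 were lower, with sums of 58218 to 120103 CPM with CCl4 and 134901 to 153826 CPM with oil, and 8 of 8 myofibroblast and 8 of 10 monocyte-derived macrophage genes were higher. Their part in these counts was not tested.

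T3 raised these genes in wild-type livers, and in more of them after CCl4. With CCl4, 74 of 83 members rose on T3 and 1 fell (background: 41.7% of all genes, 20% higher and 21.7% lower), with a median log2 change of 0.78 against -0.06 for all genes. All 4 genes of complex II rose, 34 of 38 in complex I, 8 of 9 in complex III, 11 of 14 in complex IV, 16 of 17 in complex V, and Cycs. The medians lay between 0.73 and 0.81 in complexes I to V. The one that fell was Cox6a2, a muscle isoform. The 8 members not called were Ndufa2, Ndufa7, Ndufb2, Ndufa4l2, Uqcrq, Cox7a2l, Cox7a1 and Atp5s. Total counts alone, which lowered all log2 changes by a median of 0.36, gave 56 higher and 3 lower, and without both muscle-bearing livers 75 rose and 1 fell. Cell type markers moved as well: 7 of 10 hepatocyte genes were higher on T3, with sums of 83731 to 125917 CPM against 53099 to 73407 CPM on PBS. All 10 Kupffer cell genes were higher (821 to 1255 CPM against 253 to 480 CPM in sum), while 5 of 10 monocyte-derived macrophage genes (177 to 243 CPM against 298 to 609 CPM) and 6 of 8 myofibroblast genes were lower. The part of these shifts in the rise of the members was not tested.

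With oil, 31 members rose on T3 in wild type and 3 fell (background: 35.3% of all genes, 19% higher and 16.2% lower), with a median of 0.25. Complex IV had the largest share, 8 of 14 higher with a median of 0.36, and complex II the smallest, with Sdhd alone called and a median of -0.13. In complex I 12 of 38 rose, in complex III 3 of 9 and in complex V 6 of 17. The 3 that fell were Ndufa4l2, Cox6a2 and Atp5s. Here the hepatocyte sums were lower on T3, at 81085 to 111487 CPM against 125930 to 177768 CPM on PBS, with 2 of 10 genes called lower, while all 10 Kupffer cell genes and 7 of 8 genes of dividing cells were higher. Their part in this result was not tested. The test of the difference between the T3 responses with CCl4 and with oil in wild type called 40 members stronger with CCl4 and 1 weaker (background: 23.9% of all genes, 10.8% higher and 13.1% lower), including 22 of complex I and all 4 of complex II. Total counts alone gave 4 and 2, and 21 in all were called without replicate 4 of wild type on T3 with oil. This test, the T3 response with CCl4 and the CCl4 comparison on PBS share the injured wild-type livers on PBS.

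**Figure D2:**
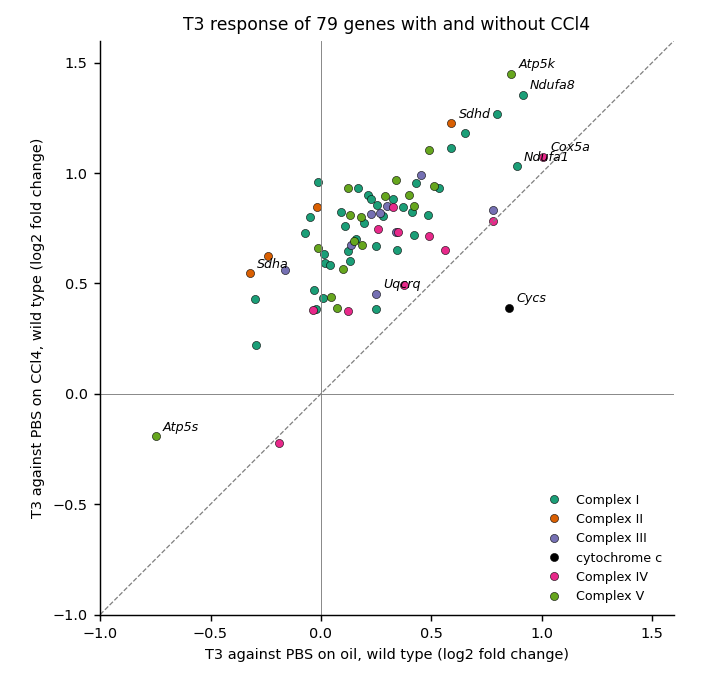
Log2 change on T3 in wild type with oil (horizontal axis) and with CCl4 (vertical axis) for 79 members, 1 point each, with a dashed line of equality. Most points lie above the line, and Cycs, at 0.85 and 0.39, lies below it.

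Over the 79 members with a level of note (the 3 low isoforms of complex IV and Ndufa4l2 left out), the T3 responses with oil and with CCl4, which share no library, had a Pearson r of 0.69 and a Spearman rho of 0.65, a description across genes that share all their libraries. Of the 30 called with oil among these 79, 29 were also called with CCl4, which is 29 of 73 there. With 73 of the 79 called with CCl4, most of that overlap was given in advance. In the knockout the responses were small. With oil, T3 raised 5 of 83 members (Ndufa1, Ndufa8, Ndufb7, Cox6b2 and Atp5e) and lowered none (background: 18.7% of all genes, 10.6% higher and 8.11% lower), a count that ran from 1 to 11 with single livers left out and was 12 without both muscle-bearing livers. With CCl4 none was called (smallest adjusted p 0.059, background 2.54%), although 23 had an unadjusted p under 0.05, all lower, and DESeq2 called 1. All 83 log2 changes were below 0 there, with a median of -0.20, and 13 members were called lower without both muscle-bearing livers.

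The genotypes parted on T3 after CCl4. In that setting 77 of 83 members were lower in the knockout than in wild type and none was higher (background: 22.9% of all genes, 10.4% higher and 12.5% lower), with a median log2 difference of -0.74 against 0.02 for all genes. Complex II lay deepest with a median of -0.91 and complex I at -0.70, with III, IV and V at -0.79, -0.77 and -0.79. The members not called were Ndufb2, Ndufa4l2, Uqcrq, Cox6a2, Cox6b2 and Atp5s. Total counts alone called 72, all lower. Of the 10 hepatocyte genes 3 were lower and 1 was higher, with sums of 98558 to 129544 CPM in the knockout and 83731 to 125917 CPM in wild type. Of the 8 myofibroblast genes 6 were higher in the knockout, and of the 10 monocyte-derived macrophage genes 3, and their part in the result was not tested.

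By the interaction test, the T3 response with CCl4 was lower in the knockout for 75 members (background: 22.7% of all genes, 12.4% lower), with a median of -0.96. With oil fewer members were called. On T3 with oil 6 members were lower in the knockout, Ndufa12, Uqcr10, Cycs, Cox5a, Cox7a1 and Atp5a1 (background: 16.3% of all genes, 7.14% higher and 9.21% lower), and the T3 response with oil differed for 4, Ndufa12, Sdhd, Cycs and Cox5a (background: 12.2%, 5.58% higher and 6.64% lower). With single livers left out these counts ran from 1 to 10 and from 3 to 7. On PBS with oil none differed (background 0.538%, 5 at an unadjusted p under 0.05, none by DESeq2), and on PBS with CCl4 1 did, Ndufab1, the mitochondrial acyl carrier protein (background 2.25%, 1.21% higher). That last count was 12 without replicate 3 of the knockout on PBS with CCl4, 11 without replicate 4 of wild type on PBS with CCl4 and 0 without replicate 2 of the latter. The CCl4 response on T3 parted in the same way: none of the 83 was called in wild type (smallest adjusted p 0.17, background 3.4% of all genes, 1.67% higher and 1.74% lower, 5 at an unadjusted p under 0.05, none by DESeq2), while 76 fell and none rose in the knockout (background: 39.6% of all genes, 19.7% higher and 19.8% lower). The hepatocyte sums of the knockout on T3 were 98558 to 129544 CPM with CCl4 and 131525 to 177302 CPM with oil, with 4 of 10 genes lower and 1 higher. The monocyte-derived macrophage sums were 227 to 512 CPM with CCl4 and 107 to 168 CPM with oil, with 6 of 10 genes higher, and 6 of 8 myofibroblast genes were higher. Neither sum overlapped between the groups, and their part in the fall of the members was not tested. The difference between the genotypes in the CCl4 response on T3 was called for 62, all lower in the knockout (background: 13.5%, 6.2% higher and 7.26% lower). These comparisons share the T3 livers with CCl4 and are not separate evidence of one another.

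**Figure D3:**
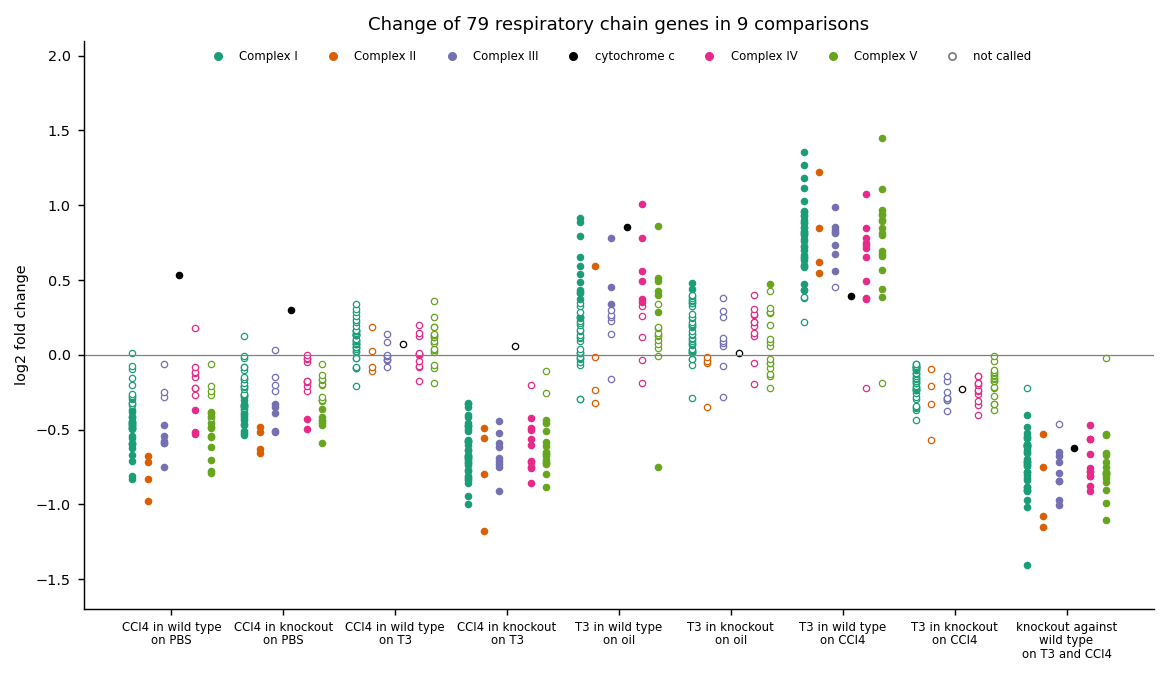
Log2 change of the 79 members in 9 comparisons (horizontal axes, by complex; vertical axis, log2), 1 point per gene, filled where called at an adjusted p of 0.05 and open where not. T3 in wild type with CCl4 has a median of 0.78 and the knockout against wild type on T3 with CCl4 a median of -0.74 over the 83 members tested.

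In complex I, Ndufa8 (ENSMUSG00000026895, chr2:36036326-36049406 on the minus strand of GRCm38), an accessory subunit on the intermembrane side of the proton-pumping arm, had the smallest adjusted p of all members for T3 in injured wild type. Its levels were 64.2, 53.8, 54 and 71.1 CPM in wild type on PBS with CCl4 and 153, 152, 147 and 172 CPM on T3 with CCl4. The groups stood far apart, and the log2 change was 1.36 ± 0.13 (SE, adjusted p 6.5e-09). In wild type with oil it had 60.7, 69.9, 69.4 and 70.7 CPM on PBS and 134, 141, 125 and 109.7 CPM on T3. That rise, also without overlap, was 0.91 ± 0.13 (adjusted p 2.6e-06). In the knockout on T3 it had 89.6, 116, 109 and 112 CPM with oil but 76.3, 71.8, 68.0 and 92.1 CPM with CCl4, so that 1 injured liver lay within the range of the uninjured. The change with CCl4 was -0.47 ± 0.13 (adjusted p 0.0055), and the difference between knockout and wild type on T3 with CCl4 was -1.01 ± 0.13 (adjusted p 2.3e-06). CCl4 on PBS left its level within overlapping ranges in wild type, with a log2 change of -0.15 ± 0.13 (adjusted p 0.34).

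Ndufa5, an accessory subunit of the matrix arm, had one of the widest gaps between genotypes. On T3 with CCl4 it stood at 89.2, 86.8, 94.2 and 115 CPM in wild type and at 37.2, 34.4, 32.4 and 41.3 CPM in the knockout. The knockout range overlapped that of injured wild type without hormone, at 41.3, 40.2, 35.2 and 43.1 CPM. On T3 with CCl4 the genotypes stood apart, and the difference between genotypes was -1.41 ± 0.16 (adjusted p 2.6e-07). The core subunits moved as a block in injured wild type on T3, where all 7 rose with a median of 0.76. The largest change among them was that of Ndufs7, a subunit with an iron-sulfur cluster next to the ubiquinone site, at 1.11 ± 0.16 (adjusted p 3e-06), and the smallest that of Ndufv1, which binds NADH and flavin, at 0.60 ± 0.13 (adjusted p 0.00044). With oil 2 of the 7 rose, Ndufs7 (0.59 ± 0.16) and Ndufv2 (0.43 ± 0.12), and Ndufs1, the largest subunit, had a log2 change of 0.01 ± 0.13. Of the 31 accessory subunits 27 rose with CCl4 and 10 with oil. Ndufa4l2, a paralog of Ndufa4 known as a hypoxia gene, went its own way: it fell with CCl4 on PBS (-1.71 ± 0.38, adjusted p 0.00073) and with T3 on oil (-1.36 ± 0.38, adjusted p 0.0059). Its level was 1.88 to 2.52 CPM in wild type on PBS with oil, 0.401 to 1.25 CPM with CCl4 and 0.571 to 1.13 CPM on T3 with oil, so these changes rest on few counts.

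Complex II is also an enzyme of the tricarboxylic acid cycle and is the only complex with no subunit encoded in mitochondrial DNA. Sdhd (ENSMUSG00000000171, chr9:50596357-50603812, minus strand), which anchors it in the membrane, had 256, 232, 205 and 197 CPM in wild type on PBS with oil and 122, 138, 119 and 162 CPM with CCl4. The fall of -0.72 ± 0.14 (adjusted p 0.00025) separated the groups. On T3 it had 363, 347, 355 and 275 CPM with oil and 349.9, 277, 294 and 344 CPM with CCl4, so injured and uninjured livers overlapped. In the knockout on T3 with CCl4 it had 159, 144, 147 and 149 CPM. The T3 response with CCl4 was 1.22 ± 0.14 in wild type (adjusted p 1.9e-07) and -0.33 in the knockout (adjusted p 0.25), and their difference was -1.55 ± 0.20 (adjusted p 4.1e-06).

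The other subunits of complex II also rose on T3 with CCl4 in wild type. Sdha, the flavoprotein, had 739, 634, 669.9 and 637 CPM in wild type on PBS with oil, 324, 287, 353 and 395 CPM with CCl4 and 589, 463, 478 and 456 CPM on T3 with CCl4. The hormone-treated injured livers lay between the other groups and overlapped neither. The fall with CCl4 was -0.98 ± 0.20 (adjusted p 0.00024) and the rise on T3 0.55 ± 0.19 (adjusted p 0.025), and with oil T3 gave -0.32 ± 0.19 (adjusted p 0.21). Sdhb, the iron-sulfur subunit, had 212, 189, 206 and 263 CPM in wild type on T3 with CCl4 and 95.7, 94.9, 84.3 and 118 CPM in the knockout, a difference of -1.15 ± 0.18 (adjusted p 2.4e-05) without overlap. Sdhc, the other anchor, rose by 0.85 ± 0.14 on T3 with CCl4 in wild type and was lower in the knockout there, at -0.75 ± 0.14. Under total counts alone the rises of Sdha and Sdhb on T3 with CCl4 were 0.19 and 0.27 and no longer called.

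**Figure D4:**
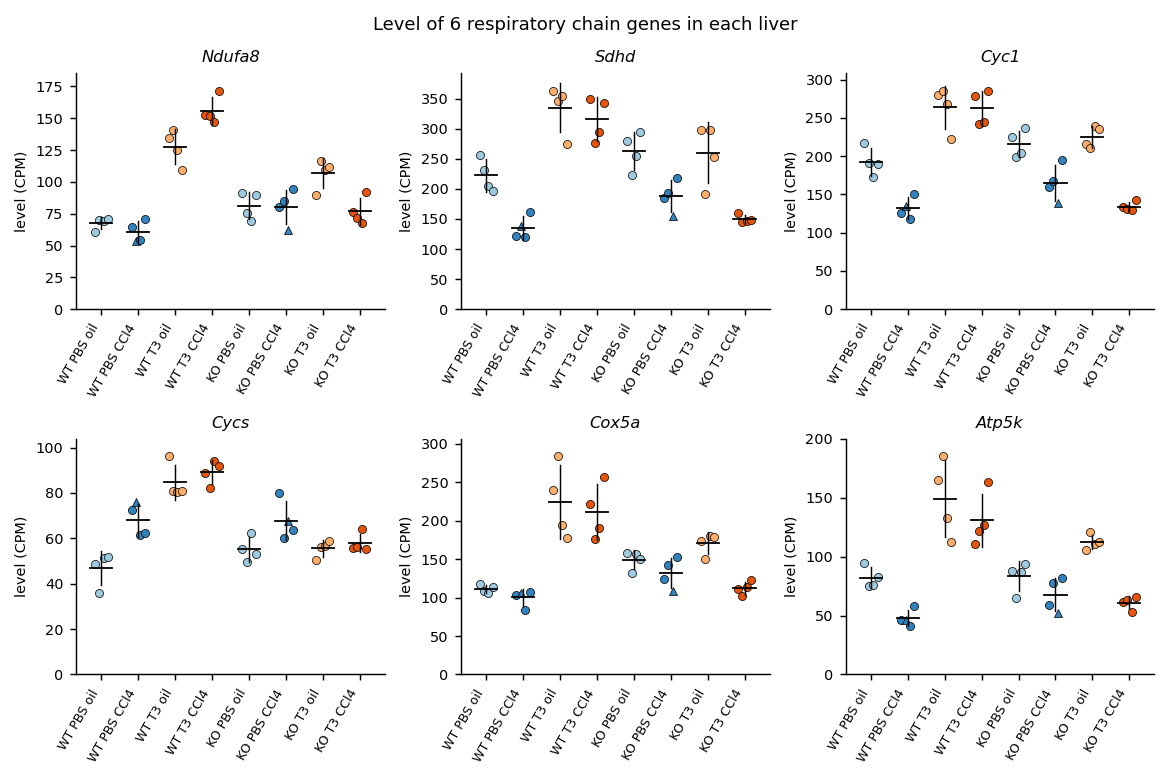
CPM (vertical axes) of Ndufa8, Sdhd, Cyc1, Cycs, Cox5a and Atp5k in each liver of the 8 groups (horizontal axes). Points are livers, horizontal bars means, vertical bars SD, and triangles the 2 livers with muscle transcripts. In injured livers on T3, wild-type points lie above knockout points for each of the 6 genes.

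In complex III, Cyc1 (ENSMUSG00000022551, chr15:76343523-76346260, plus strand), the cytochrome c1 that hands electrons to cytochrome c, had 217, 191, 172 and 189.7 CPM in wild type on PBS with oil and 125, 134, 118 and 150.4 CPM with CCl4. No injured liver reached the uninjured range, and the change was -0.54 ± 0.11 (adjusted p 0.00035), but -0.15 and no longer called under total counts alone. On T3 with CCl4 it had 278, 242, 244 and 285 CPM in wild type and 133, 131, 129 and 142 CPM in the knockout. The genotypes stood apart by a log2 difference of -0.97 ± 0.11 (adjusted p 4.9e-07), and the T3 response differed between them by -1.29 ± 0.16 (adjusted p 1.9e-06). The Rieske iron-sulfur protein Uqcrfs1, the other nuclear-encoded redox subunit, followed Cyc1, with 0.85 ± 0.12 on T3 with CCl4 and -0.84 ± 0.12 between genotypes. Uqcr10, a small subunit, did not fall with CCl4 on PBS by the test (-0.06 ± 0.13, adjusted p 0.74) but rose on T3 with oil (0.78 ± 0.13) and with CCl4 (0.83 ± 0.13). Uqcrc2, one of the core proteins, was called for CCl4 on PBS (-0.75 ± 0.12) and not for T3 with oil (-0.16 ± 0.12, adjusted p 0.31). It rose by 0.56 ± 0.12 on T3 with CCl4.

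Cytochrome c departed from the complexes it joins. Cycs (ENSMUSG00000063694, chr6:50562563-50566538, minus strand) had 48.5, 36.1, 51.5 and 51.6 CPM in wild type on PBS with oil and 72.4, 75.9, 61.4 and 62.4 CPM with CCl4. It was the 1 member called higher there, by 0.54 ± 0.11 (adjusted p 0.00042) without overlap, and by 0.93 under total counts alone. On T3 it had 96.3, 81.0, 80.5 and 80.8 CPM with oil and 88.7, 82.2, 94.0 and 91.8 CPM with CCl4. T3 thus raised it by 0.85 ± 0.11 with oil (adjusted p 8.8e-07) and by 0.39 ± 0.11 with CCl4 (adjusted p 0.0065; 0.03 and not called under total counts alone), and the difference of these responses was -0.46 ± 0.16 (adjusted p 0.036). In the knockout on T3 it had 50.4, 56.4, 56.6 and 58.9 CPM with oil and 55.9, 56.2, 64.0 and 55.3 CPM with CCl4. These ranges overlapped, and both lay below every wild-type liver on T3. The T3 response with oil was 0.01 in the knockout (adjusted p 0.96), and its difference from wild type was -0.84 ± 0.16 (adjusted p 0.00069).

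In complex IV, Cox5a (ENSMUSG00000000088, chr9:57521274-57532426, plus strand), a matrix-side subunit, had fitted T3 responses of similar size with and without injury. Its levels were 117, 108, 106 and 114 CPM in wild type on PBS with oil and 240.1, 284, 194 and 178 CPM on T3 with oil. With CCl4 it had 103, 106, 84.3 and 108 CPM on PBS and 221, 176, 189.9 and 257 CPM on T3. Neither pair of groups overlapped, and the changes were 1.01 ± 0.14 (adjusted p 1.3e-06) and 1.07 ± 0.14 (adjusted p 6.8e-07), with a difference of 0.07 ± 0.19 (adjusted p 0.84). In the knockout the T3 response with oil was 0.19 (adjusted p 0.35), and it differed from that of wild type by -0.81 ± 0.19 (adjusted p 0.0054). Cox6a1 (0.78 ± 0.16 in both settings) and Cox8a (0.56 ± 0.17 with oil, 0.65 ± 0.17 with CCl4) had like sizes in the 2 settings. Cox4i1, an early-assembling subunit, had -0.03 ± 0.12 on T3 with oil and 0.38 ± 0.12 on T3 with CCl4 (adjusted p 0.012). Cox7b, whose promoter is printed above, had 142, 149, 135 and 161 CPM in wild type on PBS with CCl4 and 224, 229, 243 and 289 CPM on T3 with CCl4, and 122, 135, 126 and 152 CPM in the knockout on T3 with CCl4. The hormone-treated wild-type livers stood above both other groups. Cox7a2l was not raised, at -0.22 ± 0.13 on T3 with CCl4 in wild type (adjusted p 0.18), and was lower in the knockout on T3 with CCl4 (-0.47 ± 0.13, adjusted p 0.011).

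The muscle and heart isoforms of complex IV were rare in these livers. Cox6a2, the muscle form of Cox6a1, was at most 2.40 CPM in all livers but the muscle-bearing pair, which had 13.5 and 24.0 CPM. Its fall on T3 with CCl4 in wild type, -3.51 ± 1.11 (adjusted p 0.012), became -2.18 ± 0.86 (adjusted p 0.0469) without that pair, and its rise with CCl4 in the knockout on PBS, 4.62 ± 1.19 (adjusted p 0.005), became 2.08 ± 0.94 (adjusted p 0.107). Cox8b, the muscle form of Cox8a, had 6.23 and 7.49 CPM in the same 2 livers and at most 0.425 CPM in any other. It had counts in 15 libraries and stayed under the filter, as did Cox4i2, the hypoxia-linked form of Cox4i1, with 80 counts over all libraries, and Cox7b2 and Cox8c, with none. Cox7a1, the heart and muscle form of Cox7a2, was at 5.24, 5.23, 4.60 and 3.51 CPM in wild type on T3 with oil, above the 1.01 to 2.30 CPM on PBS. That rise was 1.54 ± 0.43 (adjusted p 0.0065). With CCl4 its rise on T3 missed the threshold (1.04 ± 0.44, adjusted p 0.058) but passed it without the muscle-bearing pair (1.73 ± 0.37, adjusted p 0.000546). Cox6b2, known as the testis form of Cox6b1, had 2.12, 1.86, 1.38 and 2.15 CPM in wild type on T3 with oil against 0.0562 to 0.439 CPM on PBS with oil, and the rise of 3.08 ± 0.48 (adjusted p 8.7e-06) rests on few counts. It was also the 1 member whose T3 response in the knockout was called lower with CCl4 than with oil, at -2.47 ± 0.65 (adjusted p 0.029; background 3.71%, 2.56% lower), while 40 members had an unadjusted p under 0.05 there, all lower.

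**Figure D5:**
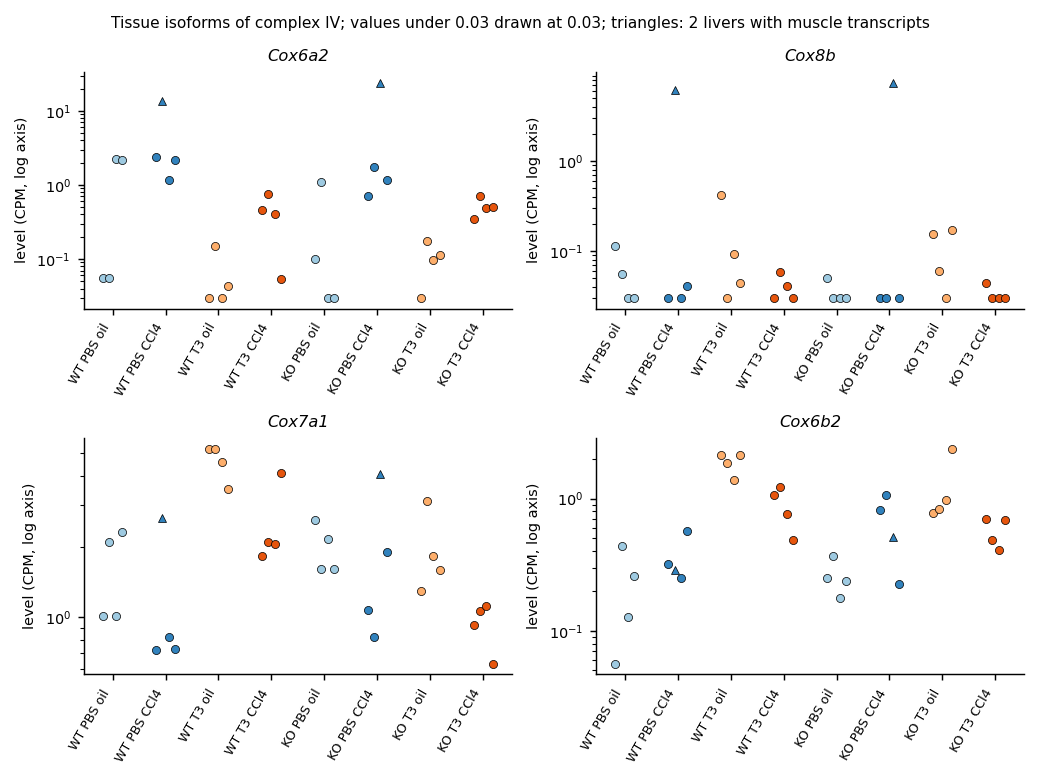
CPM on a log axis (vertical) of Cox6a2, Cox8b, Cox7a1 and Cox6b2 in each liver of the 8 groups (horizontal axes), with values under 0.03 drawn at 0.03. The 2 livers with muscle transcripts, drawn as triangles, stand highest for Cox6a2 (13.5 and 24.0 CPM) and Cox8b (6.23 and 7.49 CPM).

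In complex V, Atp5k (ENSMUSG00000050856, chr5:108433244-108434448, minus strand), the small e subunit of the membrane part, had the largest T3 response of the complex. It had 45.9, 46.3, 41.3 and 58.0 CPM in wild type on PBS with CCl4 and 111, 122, 127 and 163 CPM on T3 with CCl4, and 61.5, 63.4, 52.8 and 66 CPM in the knockout on T3 with CCl4. Wild type on T3 stood above both. The rise was 1.45 ± 0.16 (adjusted p 6.2e-08), the genotypes differed by -1.10 ± 0.16 (adjusted p 1.3e-05) and the T3 response by -1.60 ± 0.22 (adjusted p 1e-05). Atp5c1, the gamma subunit of the central stalk, had 322, 292, 293 and 268 CPM in wild type on PBS with oil, 157, 171, 162 and 189 CPM with CCl4 and 343, 292, 314 and 348 CPM on T3 with CCl4. Replicates 1 and 4 of the injured livers on T3 lay above every uninjured liver on PBS, and the other two lay within their range. It fell by -0.79 ± 0.11 with CCl4 (adjusted p 6.9e-06), rose by 0.93 ± 0.11 on T3 with CCl4 (adjusted p 3.4e-07) and did not pass the test on T3 with oil (0.12 ± 0.11, adjusted p 0.42).

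The 3 genes of the c ring encode the same mature protein and differ in their leader peptides. On T3 with CCl4 in wild type, Atp5g1 rose by 0.97 ± 0.14, Atp5g3 by 0.56 ± 0.13 and Atp5g2 by 0.39 ± 0.11, while none passed the test with oil (0.34, 0.10 and 0.08). Between genotypes on T3 with CCl4 they were lower in the knockout at -0.83, -0.78 and -0.53. Atp5g3 had the highest level, at 361 CPM in wild type on PBS with oil against 130 for Atp5g1 and 25.1 for Atp5g2. Per kb of all annotated exons it had 155 CPM, ahead of Atp5g1 at 29.3 and Atp5g2 at 15.5. The size of the gap depends on the length used, which was 2181 bases for Atp5g3, 4912 for Atp5g1 and 1675 for Atp5g2. Under total counts alone, the rises of Atp5g2 and Atp5g3 were 0.04 and 0.21 and no longer called. Atp5s, placed in complex V by its symbol alone, was the exception among the Atp5 genes. It fell on T3 with oil, from 10.3, 11.5, 14.1 and 11.9 CPM to 6.46, 7.54, 8.10 and 6.41 CPM, by -0.75 ± 0.21 (adjusted p 0.0058) without overlap. On T3 with CCl4 it was at -0.19 (adjusted p 0.48).

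The subunits encoded in mitochondrial DNA gave a partner measurement. Of the 13 genes 9 were tested, and polyadenylated RNA captures them unevenly. They summed to 59524 ± 6005 CPM in wild type on PBS with oil, 34719 ± 5406 CPM with CCl4 and 56961 ± 5068 CPM on T3 with CCl4, and to 39672 ± 4137 CPM in the knockout on T3 with CCl4. By the test, 7 of 9 fell with CCl4 on PBS in wild type, 5 rose and none fell on T3 with CCl4, and 6 were lower in the knockout on T3 with CCl4. With oil they did not rise on T3: 2 fell and none rose. Of all genes, 21.6% fell with CCl4 on PBS in wild type and 20% rose on T3 with CCl4. In the knockout on T3 with CCl4 12.5% of all genes were lower, and on T3 with oil in wild type 16.2% fell. The 2 of 9 that fell with oil lay near that last share. mt-Nd1, a core subunit of complex I, rose by 0.96 ± 0.17 on T3 with CCl4 and had 0.08 ± 0.17 on T3 with oil (adjusted p 0.77).

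Genes that build or feed the chain were counted from lists chosen for their roles. On T3 with CCl4 in wild type, 12 of 15 complex I assembly factors rose and none fell (median 0.59), led by Ecsit (0.89 ± 0.12) and Foxred1 (0.84 ± 0.13). Complex II assembly factors gave 2 higher of 4, with Sdhaf4 at 1.53 ± 0.20, complex III 4 higher and 1 lower of 6, complex IV 11 higher and 2 lower of 23, with Cox20 at 1.05 ± 0.16, and complex V 2 higher of 4. Between genotypes on T3 with CCl4 the assembly factors were called less than the subunits by count: 4 of 15, 2 of 4, 1 of 6, 6 of 23 and 0 of 4 were lower in the knockout, and none was higher. Of all genes, 20% rose and 21.7% fell on T3 with CCl4 in wild type, and 12.5% were lower in the knockout there. The knockout counts of the complex III and V factors lay near or below that last share. The difference between these lists and the subunits was not tested. For CCl4 on PBS in wild type, 10 of 15, 1 of 4, 2 of 6, 7 of 23 and 3 of 4 fell, with 1 complex I and 2 complex IV assembly factors higher (background: 24.6% of all genes higher and 21.6% lower).

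Of 13 tricarboxylic acid cycle enzymes, 10 rose on T3 with CCl4 and 12 were lower in the knockout on T3 with CCl4 (medians 0.78 and -0.75). Idh3a, a subunit of isocitrate dehydrogenase, rose by 2.43 ± 0.29. Of 8 genes that bring electrons to ubiquinone outside complexes I and II, 6 rose and 5 were lower in the knockout. They include Gpd2, the glycerol phosphate dehydrogenase of the inner membrane and a known T3 target, at 2.90 ± 0.20, and Prodh, the proline dehydrogenase, at 3.10 ± 0.37. Coenzyme Q synthesis gave 7 higher and 1 lower of 13, with Coq10a at 1.90 ± 0.13, and the list of mitochondrial membrane, import and chaperone genes 4 higher and 2 lower of 15, with Vdac1, the outer membrane channel, at 0.87 ± 0.13. In the knockout on T3 with CCl4, 6 of 13 and 6 of 15 of these were lower, with 1 and 0 higher. Of all genes, 20% rose and 21.7% fell on T3 with CCl4 in wild type, and 12.5% were lower in the knockout there. The T3 counts of the membrane, import and chaperone list lay near these shares.

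Of 12 known regulators of respiratory chain genes, 3 rose and 4 fell on T3 with CCl4 in wild type. These counts lay not far from the background of 20% of all genes higher and 21.7% lower. The 3 that rose were Esrrg, Esrra and Ppargc1b, and the 4 that fell included Nrf1 (-0.62 ± 0.22) and Gabpa (-0.37 ± 0.14). Esrrg, an estrogen-related receptor, had 0.0715 to 0.485 CPM in wild type on PBS with CCl4 and 9.13 to 20.4 CPM on T3 with CCl4, a change of 6.0 ± 0.44 (adjusted p 2.2e-11), and 0.222 to 0.661 CPM in the knockout on T3 with CCl4. Esrra rose by 0.89 ± 0.16 and Ppargc1b, a coactivator, by 1.59 ± 0.37. Ppargc1a, the best-known coactivator of this programme, did not pass the test (-0.12 ± 0.27, adjusted p 0.75) and was lower in the knockout on T3 with CCl4 (-0.79 ± 0.27, adjusted p 0.033). No binding was measured, and whether any regulator acts on these genes was not tested.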

How the data were processed

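Polyadenylated RNA of 32 mouse livers in 8 groups of 4 was measured as whole-number counts per gene, not normalized, which the authors deposited in 1 table. The submitters' processing notes name the aligner STAR 2.7.9a, cutadapt, Trim Galore and FastQC 0.11.5, and the build GRCm38. How genes were counted, with which strand option and which annotation, is not given in the sources used here, and the labels' protocols name a stranded and an unstranded library kit without saying which library had which. A gene and an antisense partner, or near-identical copies of a gene, can therefore share reads, and kit and group cannot be told apart. Library totals ran from 16985162 to 26118055 counts, and no count column was left without a sample.

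Symbols, positions and exon lengths came from GENCODE vM21 (GRCm38) and promoters from RefSeq (GRCm38.p6). Counts were tested with the quasi-likelihood F test of edgeR 4.0.16 (R 4.3.3), with TMM factors and filterByExpr (minimum count 10, minimum total 15), in 1 fit of all 32 libraries. The 18 comparisons were 12 between groups and 6 interactions. Benjamini-Hochberg adjustment ran over all 15599 genes tested, and a call needed an adjusted p under 0.05 but no minimum fold. Log2 changes carry their standard error (SE). CPM were computed here from counts with the TMM factors. The code was tested on simulated data. Replicates differed by more than sampling noise.

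The alternatives were total counts alone, totals without mitochondrially encoded genes, no filter, DESeq2 1.42.0, only the compared groups, a replicate block, each library left out in turn and, added after seeing the data, both muscle-bearing livers left out. The members and lists were chosen with earlier results of these data known. Named members are, for each comparison and complex, the 3 called members of lowest adjusted p and 2 that went against the majority, where there were any, with Cycs, Cyc1, the Sdh genes, isoform families and the highest and lowest levels per length, and up to 2 called genes of each other list. Further members named beside them, such as Ndufs7, Ndufv1, Uqcr10 and Atp5s, were chosen after their values were seen.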

Additional observations from a re-analysis of the deposited data

Results flagged for a closer look

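In 13 of 129 groups of 4 livers looked at, 1 liver stood apart from the other 3 by a gap, relative to the range, above Dixon's 95% critical value for 4, and chance alone gives about 1 such group in 20. Of these, 5 lay in the muscle-bearing livers. Wild type on PBS with CCl4, replicate 2, had 13.5 CPM of Cox6a2 (others 1.18 to 2.40), 6.23 CPM of Cox8b (others 0 to 0.0404) and 2.64 CPM of Cox7a1 (others 0.721 to 0.822), and the knockout on PBS with CCl4, replicate 3, had 24.0 CPM of Cox6a2 (others 0.716 to 1.73) and 7.49 CPM of Cox8b (others 0). The summed muscle genes stood at 659 and 1185 CPM in these livers.

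Among the rest, Cox6a2 stood at 1.11 CPM in the knockout on PBS with oil, replicate 2 (others 0 to 0.1003), Cox6b2 at 2.39 CPM in the knockout on T3 with oil, replicate 4 (others 0.774 to 0.985), and Cox7a1 at 4.14 CPM in wild type on T3 with CCl4, replicate 4 (others 1.82 to 2.09). Replicate 4 of wild type on T3 with oil had a complex II sum of 1027 CPM (others 1315 to 1357). The mitochondrially encoded sum was 64508 CPM in wild type on T3 with CCl4, replicate 4 (others 53804 to 55267). Ndufa8 was at 60.7 CPM in wild type on PBS with oil, replicate 1 (others 69.4 to 70.7). Cycs was at 96.3 CPM in wild type on T3 with oil, replicate 1 (others 80.5 to 81.0), and at 64.0 CPM in the knockout on T3 with CCl4, replicate 3 (others 55.3 to 56.2).

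Responses differed between groups by the interaction tests of edgeR. The T3 response differed between genotypes for 4 members with oil (background 12.2% of all genes) and for 75 with CCl4 (22.7%). The CCl4 response on T3 differed between genotypes for 62 (13.5%). Between oil and CCl4 the T3 response differed for 41 in wild type (23.9%) and 1 in the knockout (3.71%). The counts of 4 and 1 of the 83 tested lay below the shares of all genes. With oil, the knockout response minus that of wild type was -0.81 ± 0.19 for Cox5a (adjusted p 0.0054), -0.60 ± 0.20 for Sdhd (0.048) and -0.84 ± 0.16 for Cycs (0.00069). With CCl4 it was -1.31 ± 0.19 for Cox5a, -1.55 ± 0.20 for Sdhd, -1.29 ± 0.16 for Cyc1, -1.42 ± 0.18 for Ndufa8, -1.60 ± 0.22 for Atp5k, -0.62 ± 0.16 for Cycs and -2.11 ± 0.63 for Cox7a1, with adjusted p of at most 0.016. For the CCl4 response on T3 it was -0.71 for Sdhd, -0.74 for Cyc1, -0.76 for Ndufa8 and -0.70 for Atp5k, with adjusted p of 0.0045 to 0.037. The T3 response with CCl4 minus that with oil in wild type was 0.63 for Sdhd (adjusted p 0.024), 0.53 for Cyc1 (0.016) and -0.46 for Cycs (0.036), and in the knockout -2.47 ± 0.65 for Cox6b2 (0.029).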

How the results depend on the processing

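Of the results with any member called, 6 kept their direction and stayed within 1.5 times under every alternative run: T3 in wild type with CCl4 and with oil, the knockout against wild type on T3 with CCl4, CCl4 in the knockout on T3, and the genotype differences in the T3 response with CCl4 and in the CCl4 response on T3. Total counts alone called 59, 51, 72, 67, 67 and 48 members for them. For CCl4 on PBS they called 23 in wild type and 7 in the knockout, where the majority turned to higher, and in wild type Atp5g3 (0.018) and Cox6b1 (0.028) changed sign. They also gave 20 for T3 in the knockout with oil and 15 with CCl4, 0 and 16 for the genotypes on PBS with CCl4 and on T3 with oil, 9 for the genotype difference in the T3 response with oil, and 6 and 33 for the difference between oil and CCl4 in the T3 response of wild type and of the knockout. Which scaling is right was not tested. Total counts alone moved the median of all genes by up to 0.48 on the log2 scale. The shift applies to members and other genes alike, and the shares of all genes called under that scaling are not given here.

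Without the filter the counts were 20 for CCl4 in the knockout on PBS, 1 and 1 for T3 in the knockout with oil and with CCl4, 0 and 1 for the genotypes on PBS with CCl4 and on T3 with oil, 2 for the genotype difference in the T3 response with oil, and 17 and 0 for the difference between oil and CCl4 in the T3 response of wild type and knockout. Fitting the compared groups alone gave, for the same results, 10 for CCl4 in the knockout on PBS, 0 and 2 for the genotypes, 8 for the genotype difference with oil and 0 for the knockout's difference between oil and CCl4. DESeq2 gave 1 for T3 in the knockout with CCl4, 4 for the genotypes on PBS with CCl4, 9 for the genotype difference in the T3 response with oil and 2 for the knockout's difference between oil and CCl4. Leaving out both muscle-bearing livers gave 16 for CCl4 in the knockout on PBS, 12 and 13 for T3 in the knockout with oil and with CCl4, 10 for the genotype difference with oil and 18 for the knockout's difference between oil and CCl4. The cause was not tested.

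With the replicate number as a block, T3 in the knockout with oil called 10 members, and no other count moved by over 1.5 times (for example 55 for CCl4 in wild type on PBS). The labels give each animal its own number, and same-numbered livers correlated between -0.44 and 0.60. In no comparison did every pair exceed 0.1 or every liver correlate best with its own number, so the livers were not treated as paired. A check that needs every pair to pass cannot show that weak or partial pairing is absent.

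With single replicates left out, counts ran from 45 to 55 for CCl4 in wild type on PBS, 11 to 44 in the knockout on PBS and 69 to 75 in the knockout on T3. For T3 they ran from 23 to 38 in wild type with oil, 72 to 77 with CCl4, 1 to 11 in the knockout with oil and 0 to 4 with CCl4, and for the genotypes from 0 to 12 on PBS with CCl4, 1 to 10 on T3 with oil and 75 to 77 on T3 with CCl4. The genotype differences ran from 3 to 7 and 72 to 77 in the T3 response with oil and CCl4 and from 46 to 66 in the CCl4 response on T3. The differences between oil and CCl4 ran from 21 to 55 in wild type and 0 to 4 in the knockout. CCl4 in wild type on T3, the genotypes on PBS with oil and the genotype difference in the CCl4 response on PBS stayed at 0. Beside the livers named with the results, T3 in the knockout with oil fell to 1 without replicate 2 of either knockout group with oil, rose to 11 without replicate 1 on T3, and was 2 or 3 without replicate 3 on PBS or replicates 3 and 4 on T3. With CCl4 it was 4 without replicate 3 on PBS and 1 without replicate 2 on PBS. The genotypes on T3 with oil fell to 1 without replicate 1 or replicate 2 of wild type, rose to 10 without its replicate 4, and were 2 or 3 without replicates 2, 3 or 4 of the knockout. The genotype difference with oil was 7 without replicate 4 of wild type on T3 or replicate 2 of the knockout on PBS, and the knockout's difference between oil and CCl4 was 4 without replicate 3 on PBS with CCl4.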

Other observations

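The size of the CCl4 change followed a similar order of members in separate livers, and the like correlation over all genes is not given here. Over 79 members, the CCl4 responses on PBS of wild type and knockout, which share no library, had a Pearson r of 0.88 and a Spearman rho of 0.85, a description across genes of the same libraries, and 35 members were called in both, of 52 in wild type and 36 in the knockout. The CCl4 responses of wild type on PBS and of the knockout on T3 had an r of 0.59 and a rho of 0.52, with 51 called in both, of 52 and 75. With 75 of the 79 called in the knockout on T3, most of that last overlap was given in advance. Cycs was higher with CCl4 in the first pair (0.54 ± 0.11 and 0.30 ± 0.11) and at 0.06 in the knockout on T3 (adjusted p 0.71).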
